A study of Homo sapiens with 6 samples.

Results

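The genes described here are 10 inflammatory cytokines and chemokines, CXCL1, CXCL2, CXCL3, CXCL5, CXCL8, IL6, CCL2, CCL20, LIF and IL1B, out of 58676 genes listed. They were chosen by their symbols with results of these same libraries already known, and those results included their levels and their difference between replicate 3 and the other replicates. Levels and the replicate 3 contrast are therefore given as a description with no test. All 10 were among the 17408 genes tested, that is those that reached a TPM of 1 or more in 3 or more of the 6 libraries. TPM is the number of reads of a gene divided by its length and scaled to a sum of 1000000 per library, so that levels of different genes can be compared.

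The study asked what the retinal calcium-binding protein recoverin does when it is made in cancer cells. A549 is a lung adenocarcinoma cell line that does not make recoverin. A549 Rec cells carried a plasmid with human recoverin cDNA and A549 MOCK cells carried the same plasmid without it, and RNA of each was sequenced in 3 libraries after 6 days in high-glucose medium with biotin, calcium pantothenate, serum and methylcellulose. The study's methods describe delivery of recoverin by a retroviral vector with puromycin selection. For A549 MOCK they name an empty vector and do not state the selection. They describe RNA from confluent 2D cultures and name neither a cytokine treatment nor a clone. Nothing in the labels says that the 3 libraries of a group came from separate cultures, so the spread between them may be technical.

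Chemokines are small secreted proteins that draw leukocytes along a gradient by binding G-protein-coupled receptors. The CXC chemokines CXCL1, CXCL2, CXCL3, CXCL5 and CXCL8 (IL-8) act mainly on neutrophils through CXCR2, and CXCL8 also through CXCR1, while the CC chemokines CCL2 and CCL20 draw monocytes through CCR2 and memory lymphocytes and immature dendritic cells through CCR6. IL6 and LIF are secreted cytokines that signal through the shared receptor chain gp130 to JAK kinases and STAT3, and IL1B is a cytokine made as a precursor that caspase-1 cleaves. In epithelial cells many of these genes are induced by NF-kappaB through a kappaB site close to the transcription start, and many of their mRNAs are short-lived because AU-rich elements in the 3′ untranslated region bring them to decay.

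All 5 CXC genes lie in one stretch of chromosome 4 of GRCh38, from the start of CXCL8 at 73740506 to the end of CXCL2 at 74099293. The stretch is 358.8 kb long and holds 9 listed protein-coding genes. CXCL8 (chr4:73740506-73743716) and CXCL1 (chr4:73869393-73871242) lie on the plus strand, and CXCL5 (chr4:73995642-73998779), CXCL3 (chr4:74036589-74038807) and CXCL2 (chr4:74097035-74099293) on the minus strand. The other 5 genes lie apart from this cluster, IL6 at chr7:22725884-22732002, CCL2 at chr17:34255218-34257203, CCL20 at chr2:227805739-227817564, LIF at chr22:30240447-30246851 and IL1B at chr2:112829751-112836903.

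The promoters are shown because a kappaB site close to the start is known from several of these genes. RefSeq promoters of GRCh38.p14, 250 bases before to 50 bases after the start, matched 8 of the 10 genes, and CCL2 and LIF were not matched. The letters GGANTTTCC, searched on both strands as the core of a kappaB site, stood in 6 of the 8, while 1.64% of all 27305 promoters held them. The 120 bases before the RefSeq start of these 6 genes follow, 5′ to 3′ on the strand of the gene, with the core in capitals.
CXCL1 (chr4:73869273-73869392, plus): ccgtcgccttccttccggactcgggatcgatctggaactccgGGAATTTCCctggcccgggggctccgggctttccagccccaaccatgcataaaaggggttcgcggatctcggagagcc
CXCL2 (chr4:74099196-74099315, minus): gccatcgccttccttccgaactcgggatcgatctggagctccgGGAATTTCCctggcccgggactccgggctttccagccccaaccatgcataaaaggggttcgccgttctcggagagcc
CXCL3 (chr4:74038690-74038809, minus): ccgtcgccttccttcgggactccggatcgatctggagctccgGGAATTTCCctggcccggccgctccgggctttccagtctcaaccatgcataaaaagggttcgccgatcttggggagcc
CXCL5 (chr4:73998678-73998797, minus): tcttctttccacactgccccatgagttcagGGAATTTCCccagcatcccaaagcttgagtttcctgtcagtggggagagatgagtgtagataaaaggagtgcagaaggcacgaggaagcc
CXCL8 (chr4:73740449-73740568, plus): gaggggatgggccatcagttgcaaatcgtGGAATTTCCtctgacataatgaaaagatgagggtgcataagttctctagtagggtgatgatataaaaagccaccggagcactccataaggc
IL6 (chr7:22727080-22727199, plus): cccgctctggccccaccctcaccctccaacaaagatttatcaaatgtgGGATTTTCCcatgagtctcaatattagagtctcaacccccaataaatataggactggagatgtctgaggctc

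The core began at position -78 from the start in CXCL1 and CXCL3, -77 in CXCL2, -90 in CXCL5, -91 in CXCL8 and -72 in IL6. It read GGAATTTCC in the 5 CXC genes and GGATTTTCC in IL6. The letters TGANTCA, the core of an AP-1 site, stood only in CXCL8 among the 8 promoters, at position -137, and in 7.76% of all promoters. The TATA box letters TATAAA stood in CXCL8 and CCL20 and in 12.0% of all promoters. The CCL20 and IL1B windows held no match to the kappaB letters, which says only that these letters were not in the 300 bases searched. A match is a description of the sequence, and binding was not measured.

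The mRNAs were also alike at the other end. The pentamer ATTTA is the core of an AU-rich element, and overlapping copies of it form the type that decay factors bind. In the 3′ untranslated region of the GENCODE v44 canonical transcript, 9 of the 10 genes had at least 1 copy of the longer form TATTTAT, all but CCL2, against 35.6% of the 12084 tested genes with such a region. ATTTA occurred at 14.1 per kb in IL6, 14.0 in CXCL2, 10.4 in CXCL3, 9.84 in IL1B, 7.77 in CXCL1, 7.19 in CXCL8, 6.34 in CCL20 and 5.51 in CXCL5, where the median tested gene had 1.69. In CCL2 it was 2.66 per kb and in LIF 2.19. The densest runs show how the pentamers are joined, with each pentamer in capitals.
CXCL2: ATTTATTTATTTATTTATTTA
CXCL8: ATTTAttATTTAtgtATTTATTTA
CXCL1: ATTTATTTATTTA
IL1B: ATTTATTTATTTA
IL6: ATTTAttaatATTTA
CXCL3: ATTTAtgtATTTA
CXCL5: ATTTAtcATTTA

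RCVRN, the gene of recoverin, was read as a check of the labels. It was listed at 0 in the 3 A549 MOCK libraries and at a TPM of 322, 338 and 339 in A549 Rec. RCVRN was the 1 gene of 17408 called different between the groups (0.00574%) by limma with Benjamini-Hochberg adjustment (adjusted p = 5.8e-08). Calls were made at 0.05 and 2-fold, and 359 genes had an unadjusted p under 0.05. The study's own test, DESeq2 on read counts, called more genes at 2-fold and an FDR below 0.05. A single call here thus does not mean that no other gene changed.

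The libraries held between 15183490 and 18572167 reads as recovered from the TPM values. The genes encoded by the mitochondrial genome took 34.5% of the TPM in A549 MOCK replicate 3 and 26.9% in A549 Rec replicate 3, against 13.3% to 17.3% in the other 4 libraries. TPM adds up to a fixed sum, so a larger share of some genes lowers the values of the rest. The median tested gene was 0.19 lower in replicate 3 on the log2(TPM + 1) scale. With TPM rescaled after leaving out the mitochondrial genes it was 0.08 higher. How much of the lower median came from the mitochondrial share was not tested. The keratins KRT8, KRT18 and KRT7 (lowest TPM 1925, 2158 and 575) and ALDH1A1 (5522) were high in every library, while EPCAM (0.98 to 2.98) and KRT19 (0.07 to 0.32), both common in carcinoma of the lung, were low. Of 10 leukocyte markers, CD3E, AIF1 and TYROBP were listed at 0 in every library and PTPRC was at most 0.09, while CD14 was at 4.53 to 7.35, ITGAM at 2.76 to 3.43 and CD68 at up to 1.47. The summed TPM of the leukocyte markers was 8.54 and 10.3 in the replicate 3 libraries and between 9.77 and 12.0 in the other 4.

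A549 cells of both groups made these mRNAs at levels that lay far apart, from among the highest of any gene to a few reads. CXCL5 was the highest, with a TPM of 3483, 3308 and 2456 across A549 MOCK (replicates 1, 2 and 3 in order) and 3304, 3494 and 3339 across A549 Rec, and it ranked between 22nd and 28th among all listed genes in every library. CXCL1 followed at 1315, 1271 and 1445 across A549 MOCK and 1125, 1208 and 1592 across A549 Rec. IL1B was the lowest, at 1.60, 1.18 and 1.27 across A549 MOCK and 1.49, 1.05 and 2.33 across A549 Rec. The 10 genes together held between 0.495% and 0.598% of the TPM of a library, most of it CXCL5 and CXCL1.

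By mean TPM over the 6 libraries the order was CXCL5 (3231), CXCL1 (1326), CXCL2 (191), CXCL8 (188), LIF (126), IL6 (88.3), CXCL3 (75.6), CCL2 (58.3), CCL20 (27.9) and IL1B (1.49). The ranges of neighbours did not overlap at either end of this order, that is between CXCL5, CXCL1 and CXCL2 and between CCL2, CCL20 and IL1B. From CXCL2 down to CCL2 the range of each gene overlapped that of the next. Of these neighbours, only CXCL8 and LIF, and CXCL3 and CCL2, overlapped in replicates 1 and 2 alone. IL6 and CCL2, which are not neighbours in this order, also overlapped there. IL6 was at 53.8 in A549 Rec replicate 2 and CCL2 at 55.2 in A549 MOCK replicate 2. In both replicate 3 libraries CXCL8 stood above CXCL2 and CXCL3 above CCL2, which was not so in any of the other 4.

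**Figure D1:**
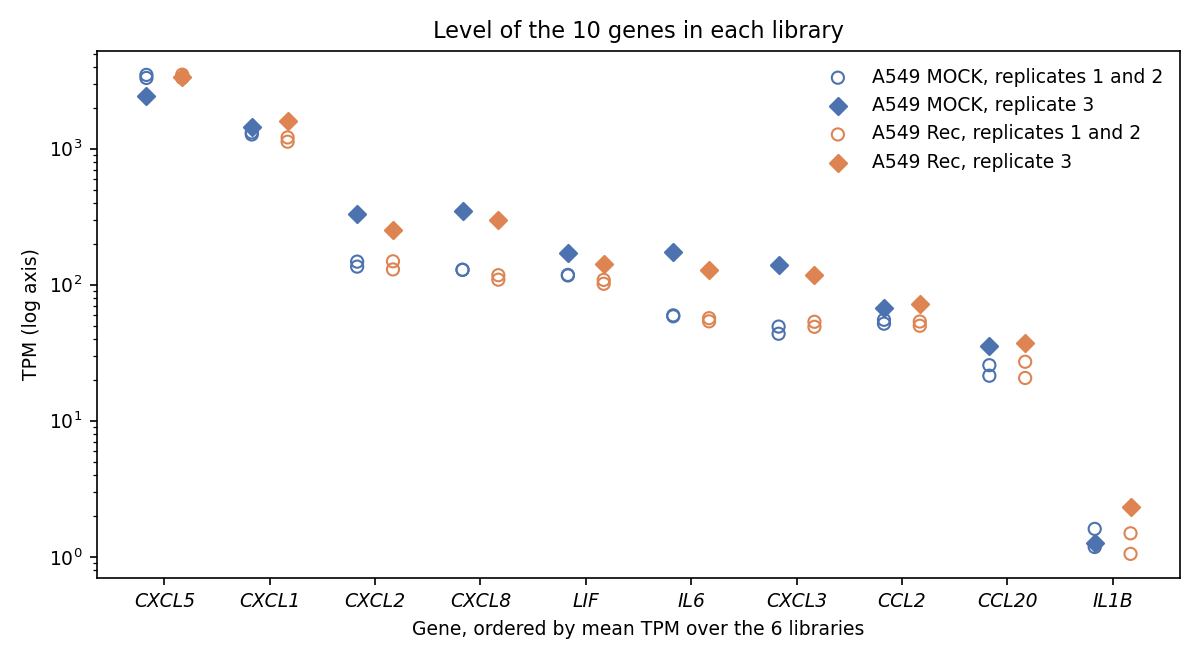
TPM (log axis) of each of the 10 genes in the 6 libraries, with open circles for replicates 1 and 2 and filled diamonds for replicate 3, in blue for A549 MOCK and orange for A549 Rec. CXCL5 lies between 2456 and 3494 and IL1B between 1.05 and 2.33, and the replicate 3 libraries stand above the other 4 in CXCL2, CXCL3, CXCL8 and IL6.

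CXCL1, CXCL2 and CXCL3 are close copies, and their reads may not have been told apart fully. Their coding sequences have 324 bases each and were identical at 93.5% of positions between CXCL1 and CXCL2, 94.4% between CXCL2 and CXCL3 and 90.7% between CXCL1 and CXCL3. Of the stretches of 50 bases that begin at each position of a transcript, at most 5.63% stood exactly in another of these genes. None were shared with CXCL5 or CXCL8. The share of bases that such stretches cover was not computed. How reads that fit several genes were counted is not given in the sources used here.

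Of the 10 genes, 8 had both replicate 3 libraries above all 4 libraries of replicates 1 and 2 in TPM, all but CXCL5 and IL1B, and none had both below. Over all tested genes 6.40% were above and 44.0% below in this way. CXCL8, CXCL3 and IL6 were at least 2-fold higher in replicate 3 in each group on the log2(TPM + 1) scale, which held for 0.362% of tested genes. Because the genes were chosen with this difference known, nothing is read from the counts. In cells sequenced in bulk, fewer cells that make an mRNA and less mRNA per cell cannot be told apart, and the same is true of more. The part of the mitochondrial share in these differences was not tested, and each of them is given below also with those genes left out.

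CXCL8, a potent attractant of neutrophils, had 128, 129 and 349 TPM across A549 MOCK. In A549 Rec it had 109, 117 and 297. The 4 libraries of replicates 1 and 2 averaged 121 ± 9.61 (SD, n = 4), and both replicate 3 libraries lay far above them, 2.71-fold in A549 MOCK and 2.62-fold in A549 Rec. On the log2(TPM + 1) scale, the difference of replicate 3 from the mean of replicates 1 and 2 was 1.43 and 1.38, at the 99.7th percentile of all tested genes. The values rest on 1236 to 1560 reads in the 4 libraries and on 4449 and 3555 reads in replicate 3, so counting error is small beside the difference.

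CXCL3 had 43.6, 49.2 and 141 TPM across A549 MOCK. In A549 Rec it had 49.0, 53.4 and 118. Its 4 libraries of replicates 1 and 2 were close together, at 48.8 ± 4.02 (SD, n = 4), and replicate 3 was 3.03-fold higher in A549 MOCK and 2.30-fold in A549 Rec. Its promoter is nearly the same as those of CXCL1 and CXCL2 in the windows shown above.

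CXCL2 had 148, 136 and 329 TPM across A549 MOCK and 129, 149 and 253 across A549 Rec. Replicate 3 was 2.32-fold the mean of replicates 1 and 2 in A549 MOCK and 1.82-fold in A549 Rec, against a spread of 9.33 (SD) around 140 in the 4 other libraries. CXCL1 lay closer together, with 1230 ± 82.8 (SD, n = 4) there and 1445 and 1592 in replicate 3. The lowest replicate 3 value of CXCL1 was above its highest other value, 1315, by less than the range of the other 4 libraries.

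CXCL5, with the same kappaB core in its promoter, went another way. Replicate 3 was below both other replicates in A549 MOCK, at 0.72 of their mean, and lay between them in A549 Rec, at 0.98 of their mean. On the log2(TPM + 1) scale its differences were -0.47 and -0.03, and with mitochondrial genes left out the mean of both groups turned from -0.25 to 0.05. Replicate 3 thus overlapped the other 4 libraries, and the number of CXCL5 reads, 34982 to 51821, leaves little counting error.

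IL6, a cytokine of the acute phase response, had 59.5, 58.6 and 174 TPM across A549 MOCK and 56.7, 53.8 and 127 across A549 Rec. The 4 libraries of replicates 1 and 2 were close together, at 57.1 ± 2.53 (SD, n = 4). Replicate 3 was 2.95-fold higher in A549 MOCK and 2.30-fold in A549 Rec.

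LIF, a cytokine of the same family as IL6, had 117, 118 and 170 TPM across A549 MOCK and 102, 108 and 142 across A549 Rec. Replicate 3 was 1.45-fold and 1.35-fold the mean of replicates 1 and 2, and its lowest value, 142, stood above the highest other, 118. CCL2 had 51.7, 55.2 and 67.0 TPM across A549 MOCK and 49.9, 53.6 and 72.2 across A549 Rec, and CCL20 had 21.4, 25.6 and 35.5 and 27.1, 20.6 and 37.3. In both CC chemokines the replicate 3 libraries were above the other 4, by 1.25-fold to 1.56-fold of the mean.

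IL1B was read from few molecules. The 6 libraries held 25, 18 and 22 reads across A549 MOCK and 23, 19 and 38 across A549 Rec. A549 Rec replicate 3 was the highest, with an exact 95% Poisson interval of 26.9 to 52.2 reads, and A549 MOCK replicate 3 lay within the range of the other 4 libraries. This interval overlapped that of each other library, for example 16.2 to 36.9 in A549 MOCK replicate 1 and 10.7 to 28.4 in A549 MOCK replicate 2, which does not show that the levels were alike. Such intervals cover counting error only.

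**Figure D2:**
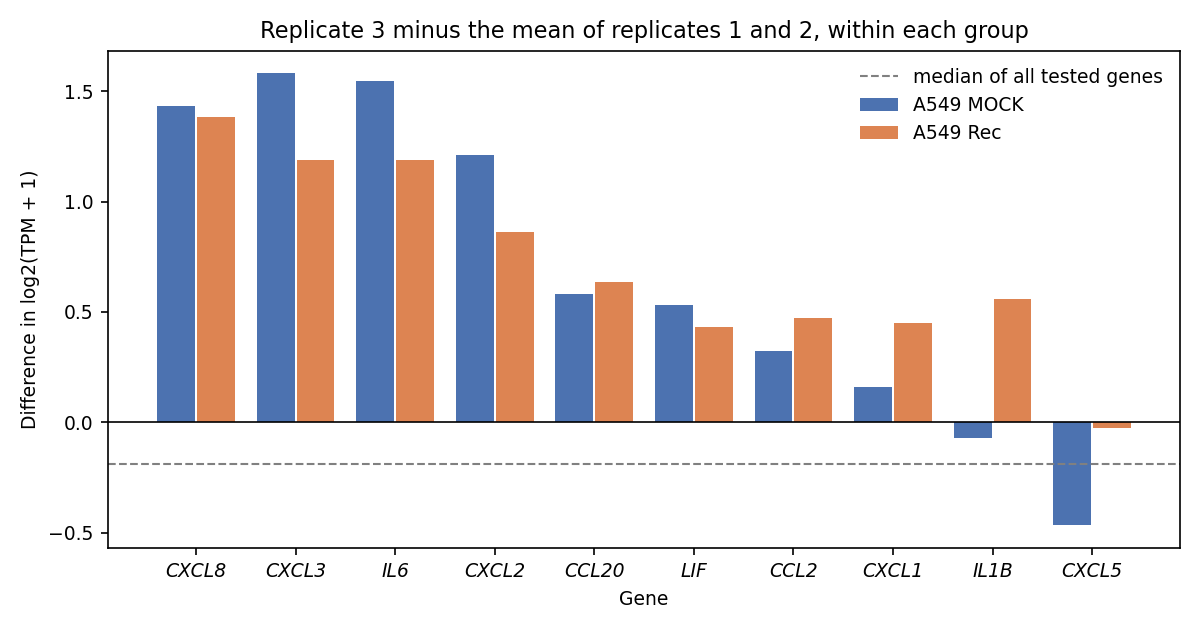
Bars give the difference of replicate 3 from the mean of replicates 1 and 2 on the log2(TPM + 1) scale for each gene, blue for A549 MOCK and orange for A549 Rec, with the dashed line at the median of all tested genes (-0.19). CXCL8, CXCL3, IL6 and CXCL2 lie between 0.86 and 1.58 in both groups, and CXCL5 lies below 0 in both.

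With the mitochondrial genes left out of the TPM, the replicate 3 difference averaged over both groups became 1.71 in CXCL8, 1.68 in CXCL3, 1.67 in IL6, 0.90 in CCL20, 0.78 in LIF, 0.69 in CCL2, 0.60 in CXCL1 and 0.46 in IL1B. In CXCL2 it became 1.33. The median over the 10 genes moved from 0.54 to 0.84, and in normalized recovered reads it was 0.77, where the median of all tested genes was 0.00. After this rescaling 9 of the 10 genes had both replicate 3 libraries above the other 4, with IL1B added, beside 27.3% of tested genes above and 14.8% below. The 4 highest genes kept their place above the other 6 in each of these scales.

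Over the 6 libraries the levels of CXCL2, CXCL3, CXCL8 and IL6 went together, with Pearson's r between 0.98 and 0.99 for each pair on the log2(TPM + 1) scale. These correlations describe 6 libraries that share the replicate 3 difference, and no test is given. CXCL5 had a negative r with each of the other genes except IL1B (0.17), from -0.37 with CXCL1 to -0.81 with LIF. IL1B, with its few reads, had r between 0.24 and 0.63 with the genes other than CXCL5.

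The cluster on chromosome 4 did not move as a block. From its plus-strand end, CXCL8 was 1.41 higher in replicate 3 (log2(TPM + 1), mean of both groups), CXCL1 0.31 higher, CXCL5 0.25 lower, CXCL3 1.38 higher and CXCL2 1.04 higher. The CXCL5 value was close to the -0.19 of the median tested gene. With mitochondrial genes left out CXCL5 was at 0.05, beside 0.08 for the median tested gene. PPBP, the platelet chemokine next to CXCL5, was low, at 3.05, 2.55 and 1.50 TPM across A549 MOCK and 2.80, 3.11 and 2.65 across A549 Rec. CXCL6, PF4 and PF4V1 were listed at 0 in every library.

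**Figure D3:**
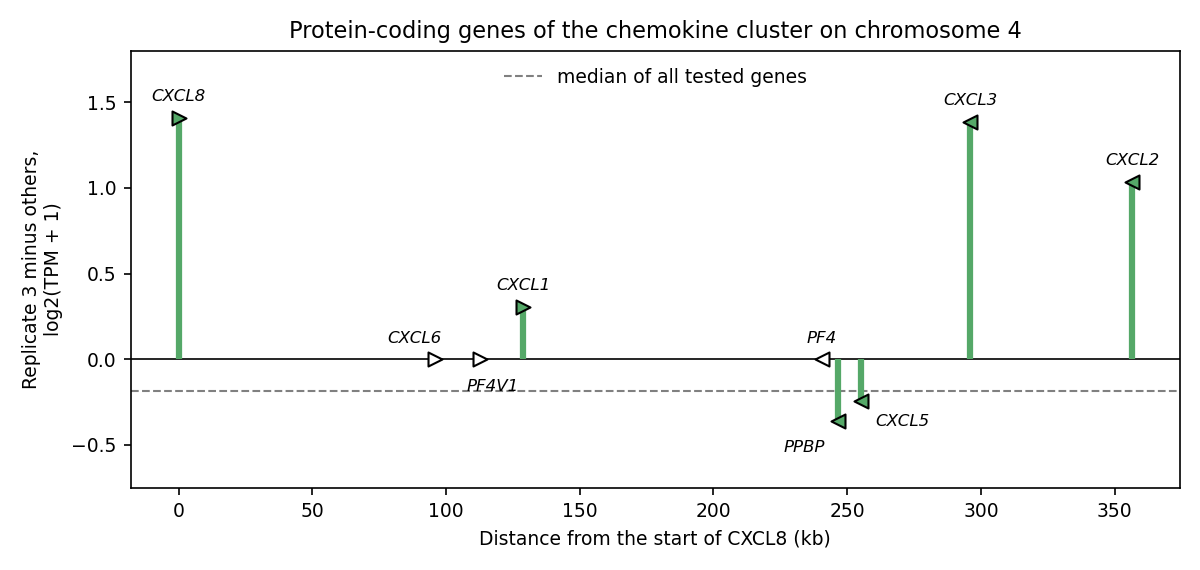
Difference of replicate 3 from the mean of replicates 1 and 2, log2(TPM + 1), averaged over both groups, against distance from the start of CXCL8 in kb, for the 9 protein-coding genes of the cluster. Triangles point in the direction of transcription, open triangles are genes listed at 0 in all libraries, and the dashed line is the median of all tested genes (-0.19). CXCL5, close to that line, and PPBP lie below 0 between genes that lie above.

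None of the 10 genes was called different between A549 Rec and A549 MOCK, beside 0.00574% of tested genes. Each had a Benjamini-Hochberg adjusted p of 0.9997 (limma), none had an unadjusted p under 0.05 by limma or by limma-voom on recovered reads, and the differences of the means lay between -0.21 (IL6) and 0.15 (CXCL5) on the log2(TPM + 1) scale. No gene had groups that did not overlap, where 2.47% of tested genes had all A549 Rec libraries above A549 MOCK and 2.69% all below. The replicate 3 libraries widened both groups, so that the intervals of the difference were wide.

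CXCL8 averaged 202 ± 127 TPM (SD, n = 3) in A549 MOCK and 174 ± 106 in A549 Rec, with a log2 difference of -0.20 and a 95% interval from -1.40 to 1.00. IL6 averaged 97.4 ± 66.5 and 79.2 ± 41.5, with -0.21 (-1.38 to 0.96), and CXCL3 77.8 ± 54.5 and 73.4 ± 38.5, with 0.01 (-1.18 to 1.20). Each of these intervals spans more than 2 on the log2 scale, so they set only wide limits. The intervals were narrower where replicate 3 stood out less, as in CCL2, with 58.0 ± 8.04 and 58.6 ± 12.0 TPM and an interval from -0.40 to 0.41, and in CXCL1, with 1344 ± 90.7 and 1308 ± 249 and an interval from -0.51 to 0.40.

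Libraries were also compared in pairs by replicate number alone, and a pairing of replicates 1 and 2 is not shown by the data or stated in the labels. Within these pairs CXCL8, IL6 and LIF were lower in A549 Rec in 3 of 3, as were 9.66% of tested genes. The pair differences were -0.24, -0.13 and -0.23 in CXCL8, -0.07, -0.12 and -0.45 in IL6 and -0.20, -0.12 and -0.26 in LIF. The other 7 genes changed sign between pairs, and in all, 8 of the 10 were lower in A549 Rec in pair 1, 7 in pair 2 and 5 in pair 3. The median level of all tested genes was also lower in A549 Rec in pair 1, and higher in pairs 2 and 3. The share of tested genes lower in each single pair was not computed, so nothing is read from these counts. In a fit that blocked on replicate number, the interval ran from -0.38 to -0.02 in CXCL8, from -0.37 to -0.02 in LIF and from -0.46 to 0.03 in IL6. CXCL8 and LIF then had an unadjusted p under 0.05, beside 1.83% of tested genes that were lower in A549 Rec at this level, and the adjusted p of every one of the 10 was 0.998 (limma, Benjamini-Hochberg), so that no gene was called with the block either. Without replicate 3, the 2 A549 Rec libraries were below both A549 MOCK libraries in CXCL1, CXCL8, IL6 and LIF, that is in 4 of 10, beside 19.2% of tested genes.

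**Figure D4:**
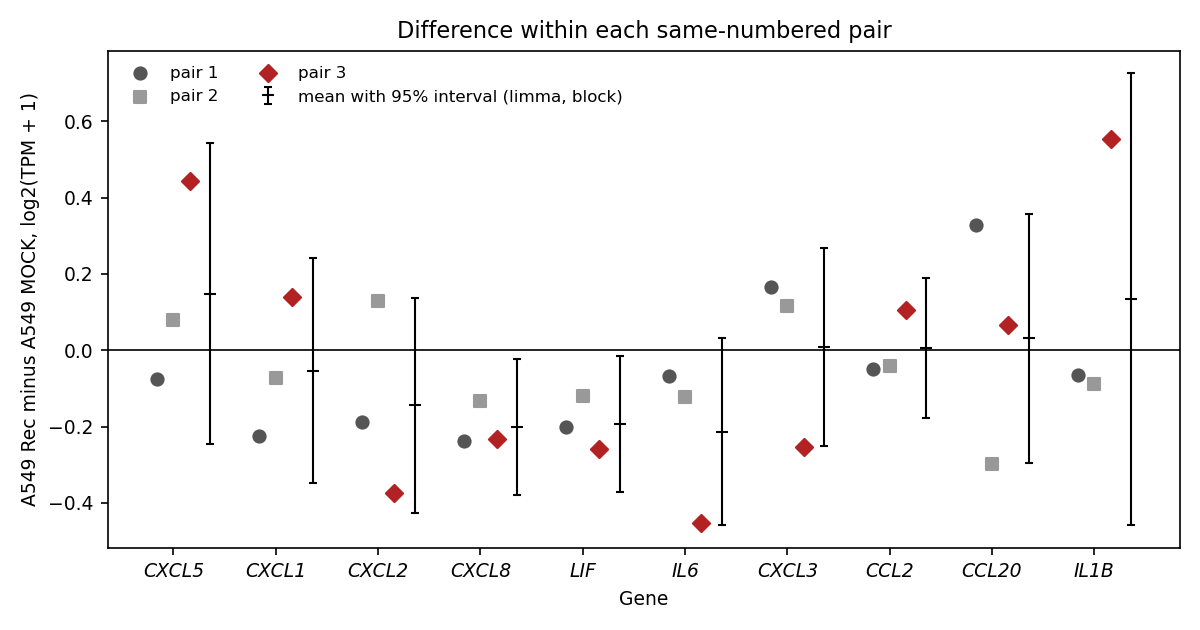
A549 Rec minus A549 MOCK on the log2(TPM + 1) scale for each gene, with 1 symbol per same-numbered pair and a bar for the mean and its 95% interval from the limma fit that blocks on replicate number. The 3 pairs of CXCL8, IL6 and LIF lie below 0 and those of the other genes on both sides of it, and the intervals of CXCL8 (-0.38 to -0.02) and LIF (-0.37 to -0.02) end below 0.

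The genes around these ligands were described from 8 lists of their receptors, regulators and relatives, with 149 genes of which 87 were tested. The lists were made with earlier results of these data known. Of the 87, none was called different between A549 Rec and A549 MOCK and 1, TGFB2, had an unadjusted p under 0.05. In replicate 3, 22 of the 87 had both libraries above the other 4 and 31 had both below, with the shares over all tested genes given above.

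Other chemokine ligands were scarce in A549. Of 37 on the list, 4 were tested, and CXCL16, a membrane-bound chemokine, was the highest. It had 27.4, 32.5 and 16.4 TPM across A549 MOCK and 30.2, 36.1 and 25.5 across A549 Rec, so both replicate 3 libraries were the lowest. CCL26, an eosinophil attractant, had 21.7, 13.2 and 15.1 TPM across A549 MOCK and 19.3, 14.8 and 20.7 across A549 Rec. TNF, the classical inducer of NF-kappaB, was listed at 0 in every library, and IL1A reached at most 2.59. MIF, a cytokine commonly abundant in cell lines, was also listed at 0 in every library, so a listing at 0 need not mean that an mRNA was absent.

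Of 13 tested interleukins and growth-factor cytokines, 4 had both replicate 3 libraries above the other 4 and 3 below. CSF3, the granulocyte growth factor, had 7.96, 7.68 and 13.9 TPM across A549 MOCK and 7.58, 6.48 and 14.6 across A549 Rec. IL23A, a subunit of IL-23, had 3.85, 7.01 and 9.61 and 4.22, 7.64 and 9.11. IL32 and TGFB1 went the other way, TGFB1 with 367, 368 and 226 TPM across A549 MOCK and 336, 356 and 272 across A549 Rec.

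The receptors for the chemokines were not detected above trace levels. CXCR1, CCR2, CCR6 and ACKR1 were listed at 0 in every library, and CXCR2 reached at most 0.06 TPM and the scavenger receptor ACKR2 0.22. Receptors of the cytokines were present, and 5 of the 6 tested had both replicate 3 libraries below the other 4. IL6ST, which encodes gp130, had 61.3, 57.6 and 47.3 TPM across A549 MOCK and 56.3, 59.2 and 45.4 across A549 Rec, and with mitochondrial genes left out its mean replicate 3 difference moved from -0.33 to -0.04. IL6R had 11.9, 11.1 and 5.85 and 10.4, 10.5 and 8.44, and IL1R1 had 14.1, 13.7 and 7.97 and 14.5, 15.5 and 10.9. Their differences, -0.57 and -0.58, became -0.32 and -0.31 with mitochondrial genes left out.

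Of 19 tested NF-kappaB inhibitors and target genes, 10 had both replicate 3 libraries above the other 4 and 3 below, with a median difference of 0.22. PTGS2, which encodes the prostaglandin synthase COX-2, had 231, 227 and 521 TPM across A549 MOCK and 193, 201 and 461 across A549 Rec, a pattern close to that of CXCL8. TNFAIP3, which encodes the NF-kappaB inhibitor A20, had 84.2, 85.4 and 161 and 74.5, 74.6 and 122. IER3, an early response gene, had 2.05, 1.20 and 4.47 and 0.59, 1.01 and 4.34. LCN2, which encodes lipocalin 2, had 364, 369.5 and 227 TPM across A549 MOCK and 322, 350 and 378 across A549 Rec, so that the groups parted in replicate 3.

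Genes of the transcription factors and of proteins that act upstream of them lay on both sides. Of 13 tested NF-kappaB and C/EBP genes, 2 were above in replicate 3 and 5 below, with a median of -0.00. The list includes CHUK, IKBKB, IKBKE and IKBKG, which do not encode transcription factors. IKBKG was below, at -0.58, and at -0.28 with mitochondrial genes left out. CEBPG was above, with 43.0, 42.0 and 75.2 TPM across A549 MOCK and 53.0, 53.2 and 67.3 across A549 Rec. CEBPB, known to act with NF-kappaB on the IL6 and CXCL8 promoters, had 430, 395 and 316 and 364, 437 and 350, and its difference of -0.29 became 0.01 with mitochondrial genes left out. Of 12 genes listed as decay and binding factors of AU-rich mRNA, none was above and 7 were below. The list also holds a kinase gene, MAPKAPK2, so it is not one of binding proteins alone. Its median, -0.17, was close to the -0.19 of all tested genes. Among the 7 were HNRNPD (-0.58), ZFP36L2 (-0.55) and ELAVL1 (-0.42). With mitochondrial genes left out these 3 differences were -0.29, -0.26 and -0.13, and that of KHSRP turned from -0.23 to 0.07.

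Of 16 tested genes of JAK, STAT3 and SOCS, which act after gp130, 6 were above and 6 below. SOCS2 (0.48) and SOCS7 (0.42) had higher replicate 3 values, and CISH (-0.54), PIAS3 (-0.36) and STAT3 (-0.35) lower ones. With mitochondrial genes left out these became 0.75, 0.67, -0.39, -0.07 and -0.06, in the same order. SOCS7 and CISH were low, at most 3.41 and 2.42 TPM in any library. Of 11 genes for IL1B maturation, 4 were tested, and CASP1, whose product cleaves the IL1B precursor, reached at most 0.83 TPM.

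**Figure D5:**
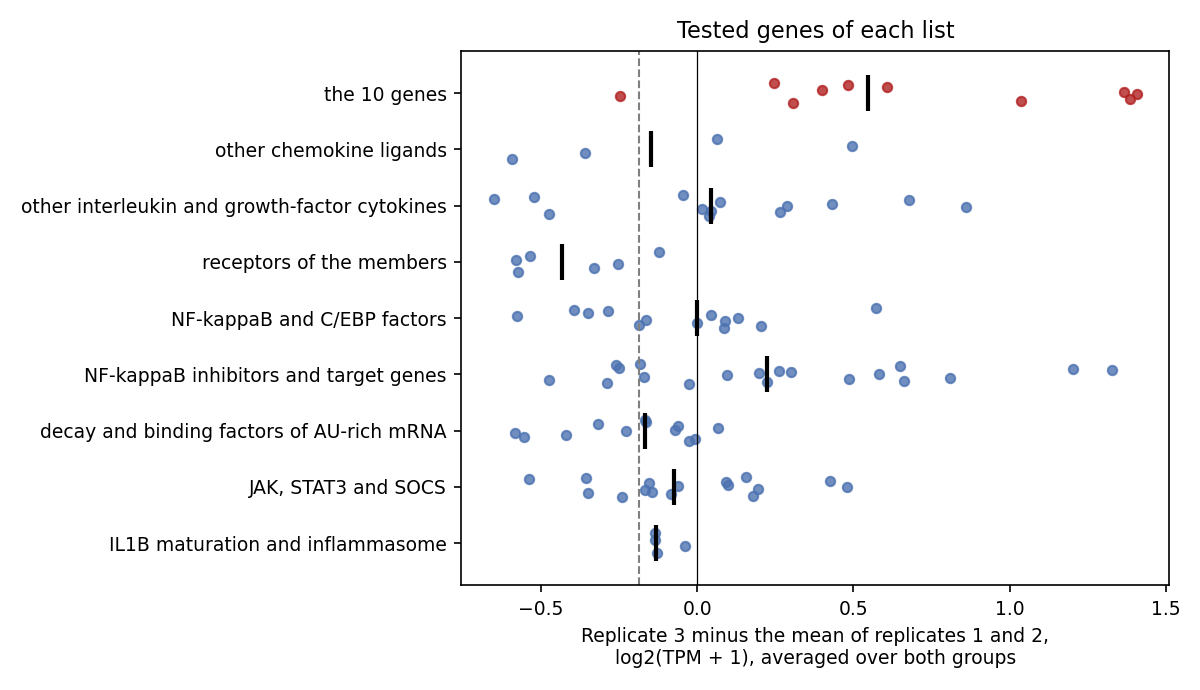
Difference of replicate 3 from the mean of replicates 1 and 2, log2(TPM + 1), averaged over both groups, for the tested genes of each list, with 1 point per gene, a black bar at the list's median and a dashed line at the median of all tested genes (-0.19). The median is 0.54 for the 10 genes, 0.22 for NF-kappaB inhibitors and target genes and -0.43 for the receptors.

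The genes whose pattern over the 6 libraries was most like the mean standardized pattern of the 10 were sought among 2697 tested genes that spanned at least 1 on the log2(TPM + 1) scale. CSF3 was the closest, with Pearson's r of 0.986, followed by AC015819.1 (0.982), AL158801.5 (0.982), SIK1 (0.979), MAGEB6 (0.977), PTGS2 (0.975), MT-RNR1 (0.970), AL355032.1 (0.965), EGR1 (0.964) and PPP1R15A (0.964). PPP1R15A, which encodes the stress-induced phosphatase subunit GADD34, had 53.0, 54.4 and 157 TPM across A549 MOCK and 54.2, 51.8 and 131 across A549 Rec. MT-RNR1 is the small ribosomal RNA of the mitochondrion and belongs to the genes whose share was high in replicate 3. SIK1 and EGR1 are early response genes, at most 5.19 and 3.75 TPM in any library.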

How the data were processed

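RNA of A549 MOCK and A549 Rec (3 libraries each) was sequenced by the authors. The study's methods name both NovaSeq and GenoLab M sequencing and do not say which library was read on which. The titles of the replicate 3 libraries carry no number, unlike the other titles. Whether sequencer or run differed between replicate 3 and the rest is not given, so it cannot be told apart from the replicate 3 difference. The submitters' processing notes name FastQC 0.11.7, Trimmomatic 0.38, HISAT2 2.1.0 and featureCounts 1.6.3. They name a mouse build, while the study's methods name GRCh38, and the deposited table holds human identifiers, of which 70.3% had the same start and end as in GENCODE v44. The authors deposited TPM with no further scaling between libraries. All columns of per-sample values were matched to a sample. The annotation release, strand setting and treatment of multi-mapping reads are not given in the sources used here.

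The genes and the lists were chosen with earlier results of these data known. Groups and replicate numbers came from the labels. Values of log2(TPM + 1) were tested with limma 3.58.1 (R 4.3.3; lmFit, then eBayes with trend) and no block. Tested were the 17408 genes that reached a TPM of 1 in 3 or more libraries, and p was adjusted by Benjamini-Hochberg over all of them. A pseudocount of 1 understates the change of low genes. A call needed an adjusted p below 0.05 with a change of 2-fold or more. Whole reads were recovered from the TPM as multiples of what 1 read is worth in each library (a tolerance of 0.01), with gene lengths fitted so that values came out whole. The recovered length equalled that of GENCODE v44 in 14535 of 29900 genes. The median library held 15463896 recovered reads, and PCR copies were not told apart. The recovery of reads and the limma fit were tested on simulated data. The data simulated for limma held no replicate 3 difference, so they do not show how the fit behaves with one.

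Deviations from the group means correlated at 0.115, 0.164 and 0.342 over genes for replicate numbers 1, 2 and 3. The deviations of a group cancel out over its 3 libraries. A replicate 3 difference shared by both groups therefore also raises the values for numbers 1 and 2. Libraries of unlike number were not compared and the labels state no pairing, so a pairing of numbers 1 and 2 is not shown. The text names all 10 genes and RCVRN. Of each list it draws on up to 4 tested genes with both replicate 3 libraries outside the other 4, by size of the difference, and up to 2 with the highest mean TPM. It also names the 10 genes most like the 10 in pattern. Other genes named (PPBP and other genes of the chromosome 4 cluster, TNF, MIF, IL1A, the chemokine receptors and CASP1) were added after their values were seen. SOD2 is listed under 2 identifiers, and the higher was used. Alternatives were another pseudocount, no filter, quantile normalization, rescaling without mitochondrial genes, limma-voom on recovered reads, no trend, no fold threshold, a replicate block and leaving out libraries. Proteins were not used here, so the ELR motif was not searched.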

Additional observations from a re-analysis of the deposited data

Results flagged for a closer look

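In LCN2 and ZFP36L1, replicate 3 lay outside both other replicates in each group but on opposite sides, and this difference between groups was not tested. The same was true of 5 of the 87 tested genes of the lists in all, the others being CASP4, IL18 and TIAL1, which are named here after their values were seen. In LCN2, replicate 3 differed from the mean of replicates 1 and 2 by -0.69 in A549 MOCK and by 0.17 in A549 Rec on the log2(TPM + 1) scale, so the groups differed by -0.86. In ZFP36L1, which encodes a factor that binds AU-rich mRNA, the differences were 0.07 and -0.09, and the groups differed by 0.16. Each side of the contrast has 1 library in replicate 3.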

How the results depend on the processing

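None of the 10 genes was called between A549 Rec and A549 MOCK under any alternative, the replicate block included (0 of the 10, and 1 gene over all tested, as without it). Over all tested genes 6 were called without the filter and 6 without the trend, in place of 1, and 1 to 2 with libraries left out. The number of the 10 whose groups did not overlap was 0 to 4 with libraries left out. It was 4 without replicate 3 in both groups, all lower in A549 Rec, beside 19.2% of tested genes that were lower in this way. It was also 4 without A549 Rec replicate 3, where the share over tested genes was not computed. Smaller groups part more easily. The number with both replicate 3 libraries outside the others was 8 where both were kept, and 9 without mitochondrial genes. The share over tested genes was computed only for TPM (6.40% above) and for TPM without mitochondrial genes (27.3% above). Where only 1 replicate 3 library was used, 9 lay outside, a looser measure with no share computed. The added gene was then CXCL5, lying below, for A549 MOCK replicate 3, and IL1B, lying above, for A549 Rec replicate 3. Their median replicate 3 difference, 0.54, became 0.82 with quantile normalization, 0.84 without mitochondrial genes, 0.77 in normalized reads and 0.60 in A549 Rec alone, and ran from 0.51 to 0.60 with libraries left out. The CXCL5 replicate 3 difference turned to 0.052 without mitochondrial genes, and that of IL1B was -0.072 in A549 MOCK alone and ran from -0.072 to 0.56 with libraries left out. Differences between A549 Rec and A549 MOCK near 0 changed sign under quantile normalization (CXCL3 -0.043, CCL2 -0.032, CCL20 -0.0012), without mitochondrial genes (CXCL3 -0.036, CCL2 -0.039, CCL20 -0.012) and with voom (CXCL3 -0.011, CCL2 -0.015, CCL20 -0.0019). With libraries left out they ran from -0.20 to 0.048 in CXCL1, -0.43 to 0.26 in CXCL2, -0.39 to 0.54 in CXCL3, -0.0069 to 0.25 in CXCL5, -0.66 to 0.28 in CXCL8, -0.61 to 0.30 in IL6, -0.15 to 0.11 in CCL2 (-0.045 without replicate 3 in both groups), -0.18 to 0.23 in CCL20 and -0.077 to 0.30 in IL1B (-0.053 without A549 Rec replicate 3), and LIF kept its sign (-0.34 to -0.017). The ends of these ranges in CXCL2, CXCL3, CXCL8 and IL6 come from leaving out 1 replicate 3 library, which unbalances the groups. The causes of the other changes were not tested. Counting error weighs most on IL1B, at 18 to 38 reads, and next on CCL20, at 172 to 318.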

Other observations

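The kappaB core, found in 6 of the 8 promoters searched, and repeated TATTTAT were looked for in other genes. Of 153 tested genes outside the 10 with the kappaB core in the promoter, 16 (10.5%) had both replicate 3 libraries above the other 4, and their median replicate 3 difference was -0.14 on the log2(TPM + 1) scale. Of 837 tested genes outside the 10 with at least 3 copies of TATTTAT in the 3′ untranslated region, 75 (8.96%) had both above, and the median was -0.14. Over all tested genes 6.40% had both above and the median was -0.19. These are descriptions with no test.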
